A study of Mus musculus with 18 samples.

Results

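Kidney fibroblasts that had been transplanted under the kidney capsule (KFs) were compared with kidney fibroblasts that had stayed in culture (KFc). The 3 KFs and 3 KFc libraries were taken by their labels from the 18 in the series, and every gene was followed. The donors were 10-week-old male mice on a C57BL/6 background with the Rosa mT/mG reporter, and KFs and KFc cells both carried it. The reporter makes all cells of the donor fluoresce with TdTomato, so it separates donor from recipient cells and does not select fibroblasts. After 10 days in culture, 400000 to 500000 cells per transplant were soaked into gelatin foam and placed under the capsule of syngeneic C57BL/6J recipients of 10 to 11 weeks. The cells stayed there for 3 days and were then sorted as CD45-;TdTomato+ cells. Cells left over at surgery were replated at 50000 per well as the KFc controls, and the sources used here leave unclear whether these had been sorted for CD45 at isolation. Transplanted and cultured heart (HFs, HFc) and tail fibroblasts (TFs, TFc), made in the same way, entered the same fit and served as comparison. The study calls its replicates biological, but the sources do not say that those of a group came from separate animals, so p-values measure the spread between these libraries, which may be in part technical.

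Fibroblasts build and remodel the collagen matrix of an organ. On a stiff plastic dish with serum they spread, assemble actin stress fibres and take on contractile myofibroblast features under the control of TGF-beta, SRF and YAP signals. In a wound they meet low oxygen, cytokines from damaged tissue and infiltrating leukocytes, and they answer with chemokines, interferon-stimulated genes, new matrix and cell division. In the kidney, fibroblasts lie between tubules, whose epithelial cells carry transporters and keratins that fibroblasts lack.

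The KFs libraries held 25240704, 31257182 and 21683565 counts (replicates 1 to 3), and the KFc libraries 26744763 to 29830534. Levels are given as CPM, counts scaled to the library's total over the genes tested times its TMM factor, the scaling factor from edgeR. The library labelled KFs replicate 3 stood apart before any comparison was made. Its distance to the other KFs libraries was 4.22 and 4.32 on the log2 scale over the 500 most differing genes of a pair, against 2.64 between KFs replicates 1 and 2. Xist, the RNA that coats the inactive X chromosome of female cells, stood at 1492 CPM in it and at no more than 0.404 CPM in the 17 other libraries. The summed level of 4 Y-linked genes was 0.722 CPM there and 175 to 229.9 CPM elsewhere, which goes against the male label of that library. Counts, list medians and log2 fold changes of KFs against KFc are therefore also given without it. The median coefficient of variation of genes at 10 CPM or more was 17.96% among the 3 KFs libraries, 11.2% between KFs replicates 1 and 2 and 4.91% among the KFc libraries.

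Of 9 defining markers of fibroblasts, all were above 3 counts in the KFs libraries and in KFc replicate 1, and 8 were so in KFc replicates 2 and 3, where Lum was at 1 and 3 counts. The summed level of these markers, most of it from Col1a1, Col1a2 and Col3a1, was 94971, 71804 and 19722 CPM in KFs replicates 1 to 3 and 15281 to 16202 CPM in KFc. These collagens, Dcn and Lum were above KFc in every KFs library. Vim was below KFc in every one, at 2047, 2684 and 1878 CPM against 3003 to 3168 CPM. Pdgfra was at 357, 295 and 77.8 CPM in KFs and 107 to 111 CPM in KFc. Pdgfrb was at 419, 464 and 183 CPM against 431 to 455 CPM, and Thy1 at 54.1, 77.5 and 29.5 CPM against 65.1 to 70.9 CPM. The sum of 6 general epithelial markers was 29.2, 24.0 and 185 CPM in KFs replicates 1 to 3 and 35.0 to 44.4 CPM in KFc. Only the replicate 3 library had a sum above those of KFc. Among these markers Krt19 was lowest in replicate 3 of the KFs libraries, at 13.8, 15.7 and 8.62 CPM, against 4.05 to 7.34 CPM in KFc. The sum of 13 proximal tubule markers was 154, 76.6 and 119 CPM in KFs and 99.6 to 105 CPM in KFc, where Lrp2 made up most of it. All 13 were above 3 counts in every KFs library, and 4 or 5 of them in the KFc libraries. The sum of 8 markers of the loop of Henle, distal tubule and collecting duct was 25.5, 14.4 and 17.9 CPM in KFs and at most 0.366 CPM in KFc. The sum of 6 leukocyte markers was 105, 81.5 and 3.93 CPM in KFs and 292 to 305 CPM in KFc. In bulk RNA, fewer cells of a type and less RNA per cell cannot be told apart.

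KFs and KFc differed in the level of 3754 of 16577 genes tested (22.6%), with 2429 higher (14.7%) and 1325 lower (7.99%) in KFs. The part of the CD45- sort and of tubular RNA in these calls was not tested. A gene was called where its log2 fold change was past 1 and its p from the quasi-likelihood test of edgeR, adjusted by Benjamini and Hochberg's method, was under 0.05. Without KFs replicate 3 the test called 3921 of 16923 genes (23.2%), 2184 higher (12.9%) and 1737 lower (10.3%). The calls made in both fits and in the same direction numbered 3084, of which 1896 were higher and 1188 lower. The fit with all libraries alone called 669 genes, and in 88.8% of these KFs replicate 3 was the most extreme KFs library in the direction of the call. All later calls use these thresholds, and "called without replicate 3" refers to the fit that leaves that library out. List counts without it are over the members tested in both fits unless another number tested is given. A second log2 fold change in square brackets is that without replicate 3. The median log2 fold change over all genes tested was 0.09 with and -0.01 without that library, the reference for the list medians below. List counts below stand beside 14.7% called higher and 7.99% called lower over all genes tested (12.9% and 10.3% without replicate 3). The KFs and KFc libraries did not overlap in 8489 of the 16577 genes tested, so lack of overlap was common. The largest rises and falls named below were chosen among genes called in both fits without overlap.

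**Figure D1:**
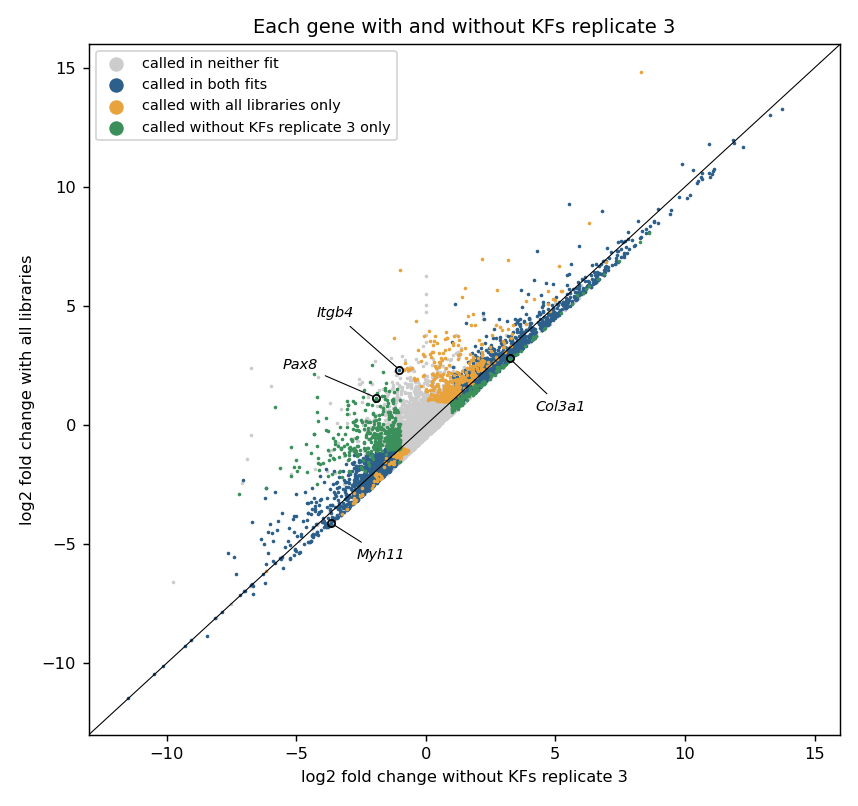
Log2 fold change of each gene, KFs relative to KFc, without KFs replicate 3 (horizontal axis) and with all libraries (vertical axis). Each point is a gene tested in both fits, the line marks equal values, and colours mark in which fit the gene was called. Points called only with all libraries lie mostly above the line (KFs replicate 3 high), and Itgb4 is the one gene called in both fits in opposite directions.

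Many genes of acute inflammation rose. Of 17 tested acute phase proteins and inflammatory enzymes 10 were called higher and 0 lower (11 and 0 without replicate 3, and 1 lower without KFs replicate 2), with a median log2 fold change of 3.78 (4.17 without it). Nos2 (ENSMUSG00000020826, chr11:78920787-78960254, plus strand in the GRCm38 annotation used for positions), which encodes the inducible nitric oxide synthase, stood at 36.3, 101 and 8.34 CPM in KFs replicates 1 to 3. It had 0 counts in all 3 KFc libraries, so its mean was at least 460-fold higher than a floor of 3 counts per library (adjusted p = 3.8e-05), and at least 651-fold higher without replicate 3. Saa3, an acute phase apolipoprotein, was at 165, 79.8 and 1.76 CPM in KFs and at 0.261, 0.0698 and 0 CPM in KFc, a log2 fold change of 9.54 (adjusted p = 3.2e-04) that was 10.08 without replicate 3. Both genes were among the largest rises, chosen without overlap of the groups, and replicate 3 was the lowest of the KFs libraries. Serpina3n, a secreted serine protease inhibitor, was 415, 134 and 51.8 CPM in KFs and 3.99, 4.50 and 3.99 CPM in KFc (log2 fold change 5.59 [6.00], SE 0.76, adjusted p = 2.5e-05). Ptgs2, the inducible prostaglandin synthase, overlapped between the groups at 216, 347 and 123 CPM in KFs and 329, 347 and 316 CPM in KFc and did not pass the test.

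Among 28 tested chemokines 10 were called higher and 4 lower (12 and 2 without replicate 3), against 14.7% and 7.99% of all genes tested. The 4 lower ones were Cxcl14, Ccl4, Ccl12 and Ccl17 (2 lower calls without KFs replicate 1 or 2 and 1 without KFc replicate 2), and here and below the members of such small counts were named after their values were seen. Those that rose furthest attract neutrophils through the receptor Cxcr2. Cxcl5 (ENSMUSG00000029371, chr5:90759360-90761624, plus strand) was at 88.2, 141 and 26.5 CPM in KFs and 0.634, 0.0698 and 0.366 CPM in KFc (log2 fold change 7.90 [8.29], SE 0.63, adjusted p = 1.4e-07). Cxcl1 was at 101, 79.1 and 50.9 CPM in KFs and 1.79, 0.838 and 1.73 CPM in KFc, a log2 fold change of 5.72 with and 5.91 without replicate 3 (adjusted p = 1.1e-07 and 1.5e-08). The groups did not overlap for either chemokine, which for Cxcl5, one of the largest rises, the rule of choice required. Cxcl12, which holds leukocytes and stem cells in tissue, was at 401, 202 and 34.6 CPM in KFs and 29.6, 30.5 and 31.9 CPM in KFc, with replicate 3 just above the controls (log2 fold change 2.79, and 3.25 without it). Ccl2, the chief monocyte attractant, stood at 81.4, 86.2 and 78.6 CPM in KFs and 51.5, 45.1 and 44.0 CPM in KFc, a log2 fold change of 0.81 [0.80] that did not reach the fold limit. NF-kB is known to induce Cxcl1, and the 250 bases before the start of this gene (RefSeq, GRCm38.p6, chr5:90890995-90891244, plus strand) are shown for their NF-kB motifs. The capitals mark GGGANNNNCC, the NF-kB motif searched on both strands, which here matches 3 times, 2 of them overlapping on opposite strands.
Cxcl1: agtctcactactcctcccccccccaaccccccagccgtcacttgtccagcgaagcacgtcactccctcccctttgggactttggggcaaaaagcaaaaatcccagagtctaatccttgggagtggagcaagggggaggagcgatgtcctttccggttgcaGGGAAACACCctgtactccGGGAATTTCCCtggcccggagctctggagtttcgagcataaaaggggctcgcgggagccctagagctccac
The motif occurred in the same window of 9 of 23 chemokines, 9 of 19 NF-kB target genes and 4 of 15 acute phase genes with a promoter in the table, and in 19.7% of all 27025 genes with one. A match is a description of the sequence and says nothing of binding in these cells. The printed promoters were chosen after the values were seen.

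Of 26 NF-kB feedback and adhesion genes 10 were called higher and 0 lower in both fits (1 lower without KFs replicate 2), a median log2 fold change of 0.62 (0.55 without replicate 3). Tnfaip3, the A20 enzyme that shuts the pathway off, was at 103, 106 and 179 CPM in KFs and 22.1, 21.6 and 22.6 CPM in KFc (log2 fold change 2.55 [2.2], SE 0.22, adjusted p = 3.2e-07). Traf1, an adaptor of TNF receptors, was at 2.26, 2.02 and 7.98 CPM in KFs and 0.559, 0.663 and 0.532 CPM in KFc (log2 fold change 2.79, and 1.82 without replicate 3). In both genes replicate 3 was the highest KFs library and the groups did not overlap. Vcam1, an adhesion molecule for leukocytes, was at 188, 178 and 263 CPM in KFs and 103, 105 and 97.0 CPM in KFc. Its log2 fold change of 1.05 was past the fold limit only with replicate 3 (0.81 without it).

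Cytokines of the IL-6 and IL-1 families and their receptors moved in both directions, with 7 of 24 called higher and 3 lower (9 and 3 without replicate 3). Il33, an alarmin released from damaged stromal cells, was at 178, 202 and 75.4 CPM in KFs and 0.224, 0.942 and 0.199 CPM in KFc (log2 fold change 8.36 [8.64], SE 0.55, adjusted p = 2.2e-08). Il1b had counts of 0 in KFc and stood at 6.71, 13.5 and 0.0802 CPM in KFs, so that its call rested mostly on replicates 1 and 2, and its mean was at least 64.0-fold higher than the floor (at least 95.7-fold without replicate 3). Csf1, the growth factor of macrophages, fell from 2105, 2083 and 2032 CPM in KFc to 402, 373 and 332 CPM in KFs (log2 fold change -2.49 [-2.46], SE 0.16, adjusted p = 1.7e-08). The 3 KFs libraries lay close together for Csf1 and far below the controls.

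Interferon-stimulated genes, whose products block viruses and present antigen, rose in 28 of 44 tested members and fell in none (27 and 0 without replicate 3). Their median log2 fold change was 1.78 (1.55 without it). Without KFs replicate 1, 20 were called higher and 1 lower, with a median of 1.06. The KFs libraries differed among themselves, as KFs replicate 1 was the highest of the 3 for 32 of the 44 genes and replicate 2 the lowest for 42. Iigp1, an interferon-induced GTPase, was at 35.2, 3.01 and 21.6 CPM in KFs and 0.447, 0.419 and 0.0665 CPM in KFc (log2 fold change 6.00 [5.89], SE 0.76, adjusted p = 1.3e-05). Isg15, a ubiquitin-like modifier, was at 17.3, 2.56 and 6.97 CPM in KFs and 2.05, 1.95 and 1.89 CPM in KFc (log2 fold change 2.18 [2.28], SE 0.57, adjusted p = 0.0053). KFs replicate 2 was nearest to the controls for both, and the groups did not overlap. The 250 bases before the start of Isg15 (RefSeq, GRCm38.p6, chr4:156200819-156201068, minus strand) are shown for their 3 overlapping copies of GAAANNGAAA, the interferon response element searched on both strands, in capitals.
Isg15: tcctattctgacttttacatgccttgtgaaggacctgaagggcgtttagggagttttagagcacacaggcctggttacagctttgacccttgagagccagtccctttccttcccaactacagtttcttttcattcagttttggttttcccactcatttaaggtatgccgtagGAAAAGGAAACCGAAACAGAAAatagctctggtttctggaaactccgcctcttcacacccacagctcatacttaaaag
This motif was present in 17 of 33 interferon-stimulated genes with a promoter in the table and in 3.46% of all genes with one.

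Complement genes split, with 9 of 22 called higher and 7 lower (9 and 8 without replicate 3). C3, the central component, was at 1238, 286 and 1321 CPM in KFs and 56.9, 56.9 and 61.0 CPM in KFc (log2 fold change 4.02 [3.67], SE 0.50, adjusted p = 1.1e-05). Cfb, factor B of the alternative pathway, was at 118, 29.0 and 13.2 CPM in KFs and 0.895, 1.01 and 1.36 CPM in KFc (log2 fold change 5.60 [6.02], adjusted p = 2.0e-05). The groups did not overlap for either. Immediate early genes of the AP-1 family were called higher in 10 of 28 and lower in 3 (11 and 3 without replicate 3). Fosb was at 203, 93.3 and 143 CPM in KFs and 2.57, 2.72 and 3.12 CPM in KFc (log2 fold change 5.70 [5.67], SE 0.26, adjusted p = 6.9e-10), and Egr1 was at 550.5, 350.0 and 400.1 CPM and 142, 144 and 137 CPM (log2 fold change 1.62 [1.63], adjusted p = 3.7e-07). Both encode transcription factors that growth factors induce within minutes, and their groups did not overlap. The 3 called lower were Maff, Mafk and Klf4.

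**Figure D2:**
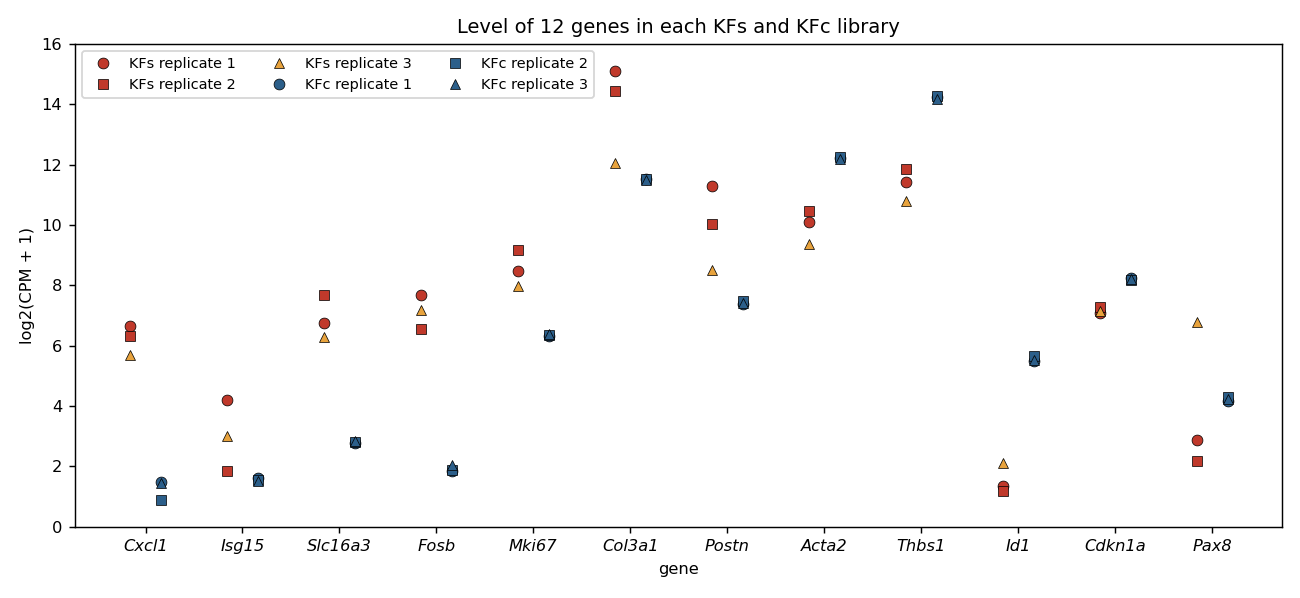
Level of 12 genes, as log2(CPM + 1), in each library. Red and orange symbols are the 3 KFs libraries, blue symbols the 3 KFc libraries, and symbol shape gives the replicate. The KFc libraries nearly coincide, and KFs replicate 3 (orange triangle) is the lowest KFs library for Col3a1, Postn, Acta2 and Mki67 and lies above all other libraries for Pax8.

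Genes of glycolysis and of the response to low oxygen rose in 23 of 35 members and fell in none (24 and 0 without replicate 3), with a median log2 fold change of 1.44 (1.52 without it). KFs replicate 2 was the highest KFs library for 29 of the 35, and replicate 3 the lowest for 31. Egln3, a prolyl hydroxylase that marks HIF for breakdown, was at 55.5, 77.3 and 16.5 CPM in KFs and 1.83, 2.37 and 1.10 CPM in KFc (log2 fold change 4.82 [5.19], SE 0.64, adjusted p = 2.0e-05). Slc16a3, which exports lactate, was at 107, 204 and 77.0 CPM in KFs and 5.89, 6.07 and 6.21 CPM in KFc (log2 fold change 4.42 [4.64], SE 0.34, adjusted p = 1.1e-07). The groups did not overlap for either gene. The glycolytic enzymes Pkm and Gapdh did not reach the fold limit. Pkm was at 1105, 1785 and 927 CPM in KFs and 912, 869 and 862 CPM in KFc (log2 fold change 0.53 [0.67]). Gapdh overlapped at 1118, 1634 and 364 CPM and 768, 755 and 731 CPM (log2 fold change 0.47, and 0.83 without replicate 3). The 250 bases before the start of Slc16a3 (RefSeq, GRCm38.p6, chr11:120948817-120949066, plus strand) hold 2 copies of ACGTG, the core of the HIF response element searched on both strands, in capitals.
Slc16a3: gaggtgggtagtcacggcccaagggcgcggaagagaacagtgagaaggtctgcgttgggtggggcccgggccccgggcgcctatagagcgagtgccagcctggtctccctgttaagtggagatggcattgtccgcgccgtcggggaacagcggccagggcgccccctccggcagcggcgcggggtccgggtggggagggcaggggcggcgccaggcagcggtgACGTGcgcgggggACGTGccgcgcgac
ACGTG was present in 18 of 32 genes of this list with a promoter in the table and in 18.5% of all genes with one.

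Other metabolic lists had smaller or negative medians. Of 33 genes of sterol synthesis, uptake and efflux 10 were called lower and 1 higher (9 and 1 without replicate 3, and 2 higher without KFs replicate 2). Hsd17b7, an enzyme of late cholesterol synthesis, fell from 72.0, 67.9 and 61.5 CPM in KFc to 10.6, 20.4 and 11.9 CPM in KFs (log2 fold change -2.22 [-2.15], SE 0.19, adjusted p = 3.0e-07). Among 75 nuclear genes of the respiratory chain 4 (Ndufa11, Ndufb4, Uqcrq and Cox6a1) were called lower, against 7.99% of all genes, and 0 higher, with a median of -0.46. The lower calls numbered 1 without replicate 3 (median -0.37), 2 without KFs replicate 1 and 11 without KFs replicate 2 (median -0.62). The 15 mitochondrially encoded genes had a median of 0.61 (0.63), and 2 were called higher, against 14.7% of all genes (3 without replicate 3, and 1 without KFs replicate 1, KFs replicate 2 or KFc replicate 1), mt-Atp8 at 150.3, 137 and 97.4 CPM in KFs and 48.2, 56.5 and 54.7 CPM in KFc and mt-Co2 at 1518, 1215 and 1004 CPM and 597, 609 and 647 CPM. KFs replicate 1 was the highest KFs library for all 15. Cytosolic ribosomal protein genes were called in 1 of 78 members (Rps12, lower), with a median of -0.18 (0.02 without replicate 3 and -0.42 without KFs replicate 2), and KFs replicate 2 was the highest KFs library for 77 of them.

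Of 32 genes of the unfolded protein response and ATF4 pathway 7 were called lower and 0 higher (7 and 2 without replicate 3). Phgdh, which opens serine synthesis, fell from 101, 95.2 and 92.2 CPM in KFc to 19.3, 25.1 and 20.4 CPM in KFs (log2 fold change -2.15 [-2.15], SE 0.11, adjusted p = 1.4e-09). Targets of the aryl hydrocarbon receptor and Nrf2 fell in 6 of 21 and rose in 4. Without replicate 3, 10 of 22 tested fell and 3 rose. Gsta4, a glutathione transferase, fell from 79.9, 68.7 and 71.3 CPM in KFc to 2.51, 1.54 and 2.81 CPM in KFs (log2 fold change -5.01 [-5.24], SE 0.22, adjusted p = 5.8e-10). The metallothionein Mt2, which binds zinc, rose from 3.62, 5.76 and 5.35 CPM to 138, 130.2 and 24.6 CPM (log2 fold change 4.31 [4.73], adjusted p = 2.1e-05), with replicate 3 the lowest of the KFs libraries. Lysosomal genes were called lower in 6 of 37 and higher in 1, Ctsh (5 and 2 without replicate 3, 10 and 0 without KFs replicate 1, 6 and 0 without KFs replicate 2), and Ctsd, the protease cathepsin D, was at 260.3, 204 and 461 CPM in KFs and 716, 707 and 682 CPM in KFc (log2 fold change -1.19 [-1.64]).

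Fibrillar collagens and the collagens that attach to them rose in 16 of 23 members and fell in 1, in both fits (2 lower without KFs replicate 1), with a median log2 fold change of 2.06 (2.43 without replicate 3). Col1a1, the main collagen of scar, was at 37637, 31110.0 and 8719 CPM in KFs replicates 1 to 3 and at 6328, 6359 and 5899.7 CPM in KFc. Its log2 fold change was 2.06 with (SE 0.38, adjusted p = 3.6e-04) and 2.43 without replicate 3 (adjusted p = 8.5e-08). Col3a1 was at 34934, 22010.0 and 4259 CPM in KFs and 2941, 2979 and 2878 CPM in KFc (log2 fold change 2.80, and 3.24 without replicate 3). All KFs libraries were above all KFc libraries for both collagens, but replicate 3 lay nearest to the controls. It was the lowest KFs library for 20 of the 23 collagens. The cartilage collagen Col2a1 went the other way, at 0.283, 0.449 and 0.481 CPM in KFs and 24.3, 21.2 and 19.4 CPM in KFc (log2 fold change -5.72 [-5.88], SE 0.40, adjusted p = 4.1e-08).

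Enzymes that process and crosslink collagen were called higher in 6 of 21 and lower in none (7 and 0 without replicate 3, 4 and 0 without KFs replicate 1, 3 and 1 without KFs replicate 2). Adamts14, which trims procollagen, was at 68.6, 96.5 and 57.8 CPM in KFs and 7.27, 9.07 and 7.94 CPM in KFc (log2 fold change 3.20 [3.31], SE 0.21, adjusted p = 2.2e-08), and P4ha2, a collagen prolyl hydroxylase, was at 433, 511 and 181 CPM and 106, 106 and 104 CPM (log2 fold change 1.83 [2.12], adjusted p = 5.4e-05). The crosslinking enzyme Lox was at 2783, 2832 and 693 CPM in KFs and 3008, 3174 and 3089 CPM in KFc and did not pass the test. Basement membrane components were called lower in 4 of 21 and higher in 2 (7 and 2 without replicate 3, and 1 higher without any 1 of the KFc libraries), against 7.99% and 14.7% of all genes. Their median was 0.13 with and -0.49 without replicate 3. Nid2, a nidogen that links laminin to collagen IV, was at 102, 57.6 and 11.2 CPM in KFs and 178, 181 and 171 CPM in KFc (log2 fold change -1.63 [-1.19], adjusted p = 0.0078).

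Matrix metalloproteinases and their inhibitors split into 7 higher and 5 lower of 21 (9 and 6 without replicate 3). Mmp9, a gelatinase, was at 27.0, 54.0 and 22.8 CPM in KFs and 5.18, 2.51 and 2.99 CPM in KFc (log2 fold change 3.29 [3.47], SE 0.41, adjusted p = 1.0e-05). Mmp3, stromelysin, was at 85.8, 66.3 and 0.762 CPM in KFs and 2.61, 2.02 and 3.49 CPM in KFc, so that replicate 3 lay below the controls while replicates 1 and 2 lay far above them (log2 fold change 4.23, and 4.76 without replicate 3). The inhibitors Timp2 and Timp3 fell. Timp3 was at 1045, 1093 and 845 CPM in KFs and 3419, 3487 and 3292 CPM in KFc (log2 fold change -1.77 [-1.71], SE 0.16, adjusted p = 3.7e-07), and Timp2 was at 393, 306 and 251 CPM and 1032, 1075 and 1044 CPM (log2 fold change -1.73 [-1.63], adjusted p = 3.5e-07).

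Matricellular wound proteins, which tune how cells hold on to matrix, were called higher in 11 of 25 and lower in 5 (12 and 5 without replicate 3). Tnn, tenascin N, was at 53.3, 69.9 and 2.93 CPM in KFs and 0, 0 and 0.133 CPM in KFc (adjusted p = 2.0e-05). Postn, periostin, was at 2530.2, 1047 and 363 CPM in KFs and 165, 176 and 169 CPM in KFc (log2 fold change 2.95 [3.35], SE 0.46, adjusted p = 8.7e-05). For both genes replicate 3 was the lowest KFs library and still above the controls. Thbs1, thrombospondin 1, fell from 19240.0, 19700.0 and 18726 CPM in KFc to 2755, 3713 and 1797 CPM in KFs (log2 fold change -2.80 [-2.61], SE 0.25, adjusted p = 3.7e-07). Fn1, fibronectin, was at 8739, 8526 and 10417 CPM in KFs and 7213, 7236 and 6863 CPM in KFc, a log2 fold change of 0.38 [0.24] that did not pass the test.

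Contractile genes of the myofibroblast fell in 15 of 21 members and rose in 1, Tagln2, in both fits, with a median log2 fold change of -1.41 (-1.32 without replicate 3). Acta2, which encodes the smooth muscle actin that defines the myofibroblast, fell from 4825, 4838 and 4705 CPM in KFc to 1093, 1416 and 654 CPM in KFs (log2 fold change -2.18 [-1.98], SE 0.34, adjusted p = 8.3e-05). Myh11, smooth muscle myosin, fell from 956, 968 and 945 CPM to 67.4, 88.9 and 9.66 CPM (log2 fold change -4.11 [-3.65], SE 0.58, adjusted p = 3.5e-05). Both genes were lowest in replicate 3, and no KFs library reached the level of a KFc library. Cald1, an actin-binding protein of stress fibres, was at 1932, 2370.4 and 1427 CPM in KFs and 5349, 5191 and 5142 CPM in KFc (log2 fold change -1.45 [-1.32], adjusted p = 1.9e-06). Acta1, skeletal actin, was at 0.889, 2.79 and 0.681 CPM in KFs and 39.4, 38.1 and 34.5 CPM in KFc (log2 fold change -4.65 [-4.35], adjusted p = 4.5e-06). The 250 bases before the start of Acta1 (RefSeq, GRCm38.p6, chr8:123894776-123895025, minus strand) are shown for their CArG box, the palindromic site of the serum response factor SRF, in capitals.
Acta1: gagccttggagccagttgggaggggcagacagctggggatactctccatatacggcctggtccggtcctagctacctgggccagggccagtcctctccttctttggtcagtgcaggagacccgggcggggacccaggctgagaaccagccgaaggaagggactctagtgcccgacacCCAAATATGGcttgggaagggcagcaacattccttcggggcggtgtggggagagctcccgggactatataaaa
A CArG box was found in 4 of 19 contractile genes with a promoter in the table and in 1.62% of all genes with one.

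Targets of YAP and TEAD, which respond to stretch and stiffness, fell in 14 of 23 and rose in 1 (14 and 0 without replicate 3), with a median of -1.10 (-1.07). Ccn2, connective tissue growth factor, fell from 1289.8, 1320.4 and 1244 CPM in KFc to 239.8, 256 and 412 CPM in KFs (log2 fold change -2.08 [-2.42], SE 0.25, adjusted p = 6.7e-06), and Crim1 fell from 791, 788 and 764 CPM to 136, 102 and 193 CPM (log2 fold change -2.44 [-2.76], adjusted p = 1.0e-07). The 1 riser, Nt5e, the ectonucleotidase CD73, was at 4.41, 6.25 and 99.9 CPM in KFs and 4.25, 3.87 and 5.05 CPM in KFc, high in replicate 3 alone and not called without it. Among 29 TGF-beta ligands, receptors and targets 8 were called lower and 2 higher (7 and 3 without replicate 3). Smad6, an inhibitor of BMP signals, fell from 72.6, 68.6 and 65.2 CPM in KFc to 7.07, 6.54 and 4.09 CPM in KFs (log2 fold change -3.54 [-3.38], SE 0.16, adjusted p = 6.9e-10), while Ltbp4, which stores latent TGF-beta in matrix, rose from 6.26, 6.39 and 5.18 CPM to 25.8, 25.2 and 27.9 CPM (log2 fold change 2.14 [2.06], adjusted p = 7.0e-07).

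Genes of BMP, Wnt and IGF signalling were called lower in 13 of 42 and higher in 5 (16 and 4 without replicate 3, and 3 higher without KFc replicate 2 or KFc replicate 3). Id1, the best known direct BMP target, fell from 44.3, 49.4 and 45.4 CPM in KFc to 1.58, 1.28 and 3.33 CPM in KFs (log2 fold change -4.50 [-5.07], SE 0.29, adjusted p = 2.1e-08). Igfbp2, which binds insulin-like growth factors, fell from 108, 99.9 and 98.3 CPM to 4.29, 3.17 and 5.61 CPM (log2 fold change -4.55 [-4.83], SE 0.25, adjusted p = 4.1e-09). Sfrp2, a secreted Wnt modulator, rose from 0.112, 0.140 and 0.532 CPM to 38.7, 6.89 and 2.24 CPM (log2 fold change 5.86 [6.33], adjusted p = 2.0e-04), with a wide spread among the KFs libraries. Growth and angiogenic factors split into 9 higher and 7 lower of 33 (9 and 12 without replicate 3). Angptl4, an inhibitor of lipoprotein lipase, rose from 3.43, 2.51 and 2.92 CPM to 168, 181 and 130.3 CPM (log2 fold change 5.75 [5.84], SE 0.19, adjusted p = 4.7e-11), and Angpt1, the ligand of the endothelial receptor Tek, rose from 1.45, 1.12 and 0.498 CPM to 24.5, 20.1 and 10.9 CPM (log2 fold change 4.18 [4.41]). Vegfd, a lymphangiogenic factor, fell from 263, 264 and 252 CPM to 82.8, 26.2 and 5.69 CPM (log2 fold change -2.76 [-2.30], adjusted p = 7.6e-04).

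Many cell division genes rose. Mitosis and spindle genes were called higher in 55 of 60 members and lower in none (56 and 0 without replicate 3), with a median log2 fold change of 1.69 (1.89). Replication-dependent histone genes were called higher in 37 of 54 and lower in 1, Hist2h2aa2 (38 and 1, and 2 lower without KFs replicate 2), with a median of 1.70 (1.92). DNA replication and nucleotide synthesis genes were higher in 28 of 53 (31) and homologous recombination genes in 18 of 32 (18), with none lower in either list (2 replication genes lower without KFs replicate 2). KFs replicate 2 was the highest KFs library for 59 of the 60 mitosis genes and replicate 3 the lowest for 55. Mki67, the Ki-67 antigen of cycling cells, was at 359, 574 and 253 CPM in KFs and 79.9, 81.0 and 82.7 CPM in KFc (log2 fold change 2.28 [2.48], SE 0.31, adjusted p = 2.7e-05). Kif15, a spindle motor, was at 25.2, 46.7 and 16.3 CPM in KFs and 4.77, 5.31 and 4.15 CPM in KFc (log2 fold change 2.63 [2.88], adjusted p = 4.8e-05). No KFs library overlapped with the controls for these genes. Blm, a helicase of recombination, was at 12, 17.4 and 10.2 CPM in KFs and 4.18, 2.69 and 2.72 CPM in KFc (log2 fold change 2.05 [2.17], SE 0.26, adjusted p = 1.5e-05), and Pole2, a subunit of DNA polymerase epsilon, was at 4.20, 5.87 and 3.13 CPM and 0.970, 0.593 and 0.864 CPM (log2 fold change 2.44 [2.59], adjusted p = 1.6e-05). Rrm1, the large subunit of ribonucleotide reductase, lay lower at 119, 139 and 66.7 CPM in KFs and 180.2, 188 and 185 CPM in KFc, with a log2 fold change of -0.76 [-0.55] that did not reach the limit. The histone gene Hist1h4k was at 4.20, 7.63 and 1.84 CPM in KFs and 0, 0.698 and 0.498 CPM in KFc (log2 fold change 3.49 [3.82]), and as its coding sequence is shared with other H4 genes the split of reads among them is uncertain. Promoters of mitosis genes are known to hold a CCAAT box and the CHR element TTTGAA, both searched on both strands and in capitals in the 250 bases before the start of Mki67 (RefSeq, GRCm38.p6, chr7:135716380-135716629, minus strand), where the 3 CCAAT and 2 TTTGAA matches do not overlap.
Mki67: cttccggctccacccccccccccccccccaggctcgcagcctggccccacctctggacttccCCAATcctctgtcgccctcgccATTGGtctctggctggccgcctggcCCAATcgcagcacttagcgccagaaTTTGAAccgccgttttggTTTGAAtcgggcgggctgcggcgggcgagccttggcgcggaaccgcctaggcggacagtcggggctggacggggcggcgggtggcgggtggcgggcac
CCAAT was present in 35 of 51 mitosis genes with a promoter in the table and in 37.5% of all genes, and TTTGAA in 19 of 51 and in 18.3% of all genes.

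Targets of p53 and the Cdkn inhibitors of the cell cycle were called lower in 13 of 35 and higher in 2 (13 and 3 without replicate 3, and 1 higher without KFs replicate 1), with a median of -0.70 (-0.92). Cdkn1a, which encodes the inhibitor p21, fell from 304, 287 and 292 CPM in KFc to 136, 154 and 142 CPM in KFs (log2 fold change -1.03 [-1.07], SE 0.08, adjusted p = 1.6e-07). Ccng1, cyclin G1, fell from 1209.9, 1231 and 1306 CPM to 449, 468 and 441 CPM (log2 fold change -1.46 [-1.49], SE 0.09, adjusted p = 8.1e-09). Cdkn2b, the inhibitor p15, fell from 135, 125 and 130.4 CPM to 33.7, 16.1 and 33.3 CPM (log2 fold change -2.23 [-2.43], adjusted p = 1.7e-06). The KFs libraries agreed closely for Cdkn1a and Ccng1, and replicate 3 did not stand apart. The 2 called higher were Cdkn1b and Igfbp3. Igfbp3, an insulin-like growth factor carrier, went up from 12.4, 13.3 and 13.9 CPM to 182, 74.0 and 15.1 CPM (log2 fold change 2.78 [3.24], adjusted p = 0.0012).

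**Figure D3:**
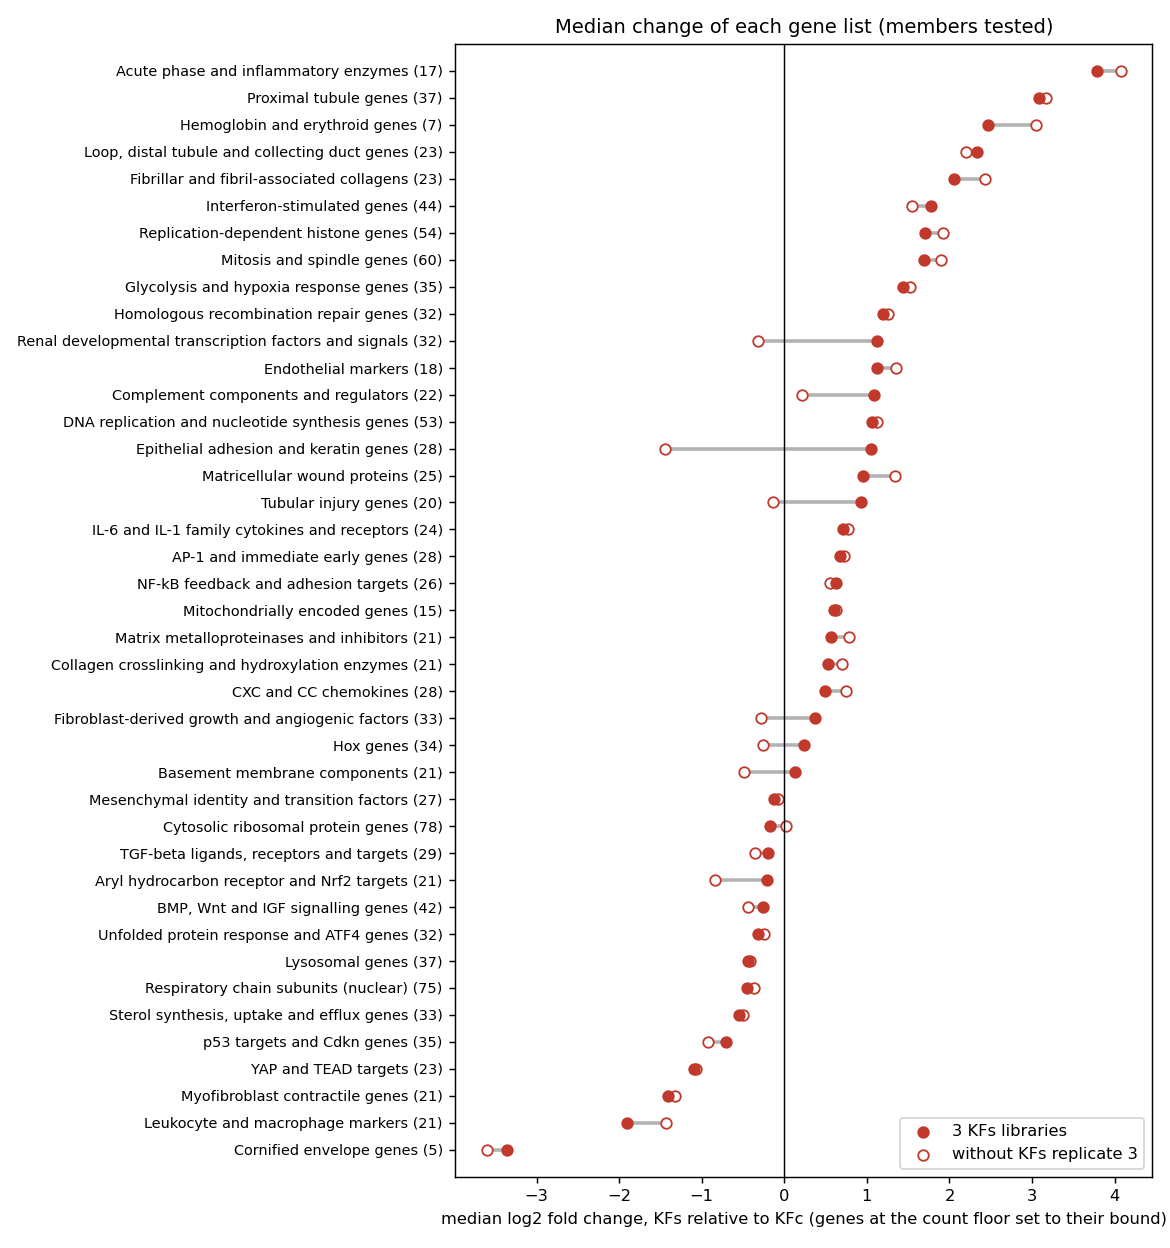
Median log2 fold change, KFs relative to KFc, of each of 41 gene lists, with the number of members tested in brackets. Filled circles use all 3 KFs libraries and open circles leave out KFs replicate 3, and genes with at most 3 counts in every library of a group stand at the bound that this floor gives. Grey bars that cross 0 mark lists whose median changed sign, among them epithelial adhesion and keratin genes (1.05 to -1.44) and renal developmental genes (1.12 to -0.32).

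Genes of mesenchymal identity were called higher in 6 of 27 and lower in 5 in both fits (3 lower without KFc replicate 3), with a median of -0.12 (-0.08 without replicate 3). Lum, the collagen-binding proteoglycan lumican, rose from 0.224, 0.0349 and 0.0997 CPM in KFc to 42.6, 7.66 and 1.28 CPM in KFs (log2 fold change 7.13 [7.64], SE 1.21, adjusted p = 1.8e-04). S100a4, also known as fibroblast-specific protein, fell from 172, 172 and 173 CPM to 4.97, 4.55 and 1.04 CPM (log2 fold change -5.60 [-5.22], SE 0.36, adjusted p = 1.7e-08). Replicate 3 was the lowest KFs library for both, in opposite directions relative to the controls. Vim, vimentin, was at 2047, 2684 and 1878 CPM in KFs and 3168, 3147 and 3003 CPM in KFc, a log2 fold change of -0.50 [-0.44] short of the limit. Hox genes were called lower in 3 of 34 (Hoxc12 and Hoxc13 among them) and higher in none, against 7.99% of all genes called lower, and the counts without replicate 3 were also 3 and 0 (1 higher without KFs replicate 1 or 2).

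Epithelial and renal developmental lists had fewer higher and more lower calls without KFs replicate 3. Epithelial adhesion and keratin genes were called higher in 3 of 28 (Krt19, Cldn1 and Ocln) and lower in 3 (Krt20, Esrp2 and Jup) with all libraries, against 14.7% and 7.99% of all genes. Without replicate 3 they were called higher in 1 and lower in 13, against 12.9% and 10.3%. The count of higher calls in edgeR was 0 without any 1 of the KFc libraries, 7 without KFs replicate 1, 9 without KFs replicate 2, and 1 with a replicate block, and in DESeq2 it was 6. Replicate 3 was the highest KFs library for 30 of 33 members above 3 counts. Cd24a, a surface glycoprotein of epithelial and progenitor cells, was at 10.6, 14.9 and 158 CPM in KFs and 97.1, 82.5 and 92.8 CPM in KFc, a log2 fold change of -0.57 with all libraries and -2.87 without replicate 3 (adjusted p = 0.49 and 6.1e-08). Jup, plakoglobin of desmosomes, fell in both fits, from 116, 115 and 109 CPM in KFc to 23.3, 24.0 and 90.7 CPM in KFs (log2 fold change -1.30 and -2.30). Renal developmental factors were called higher in 9 of 32 and lower in 1, Foxd1, with all libraries, and higher in 2 and lower in 6 without replicate 3. Their higher calls numbered 5 without KFc replicate 2 or KFc replicate 3, 13 and 12 without KFs replicates 1 and 2, and 6 with a replicate block. Pax8, which specifies the nephric lineage and stays on in tubules, was at 6.27, 3.56 and 109 CPM in KFs and 16.8, 18.8 and 18 CPM in KFc. Its log2 fold change was 1.15 with all libraries (adjusted p = 0.31) and -1.91 without replicate 3 (adjusted p = 0.0031), since replicate 3 lay above and replicates 1 and 2 below the controls.

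Genes of tubular injury were called higher in 9 of 20 and lower in 4 (5 and 6 without replicate 3). Havcr1, the kidney injury molecule Kim-1, was at 26.3, 30.7 and 628 CPM in KFs and 94.2, 68.4 and 87.0 CPM in KFc. The log2 fold change of 1.46 (adjusted p = 0.15) became -1.59 without replicate 3 (adjusted p = 4.4e-05). Lcn2, the iron-trapping lipocalin, was at 4.49, 4.62 and 51.5 CPM in KFs against 3 counts in the KFc libraries together, a ratio of 557 with a 95% counting interval of 190.4 to 2706 (exact, counting error only). Without replicate 3, which held most of its counts, the ratio was 128 (43.2 to 624). Spp1, osteopontin, was at 1279.9, 3696 and 8288 CPM in KFs and 451, 383 and 446 CPM in KFc (log2 fold change 3.37, SE 0.43, adjusted p = 1.4e-05, and 2.5 without replicate 3). Lcn2 and Spp1 were above the controls in all KFs libraries and highest in replicate 3. The part of tubular RNA, whose markers are given above, in these values was not tested.

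Transcripts of the differentiated tubule appeared in the KFs libraries. Proximal tubule genes were called higher in 31 of 37 and lower in none (29 and 0 without replicate 3, and 1 lower without KFs replicate 2), with a median log2 fold change of 3.08 (3.17) when genes at the floor stand at their bound. Slc34a1, the sodium phosphate cotransporter, was at 14.8, 7.66 and 3.33 CPM in KFs with 0 counts in KFc, at least 81.5-fold higher than the floor (at least 107-fold without replicate 3). Lrp2, the endocytic receptor megalin, was already at 99.2, 98.4 and 92.0 CPM in KFc and at 45.2, 22.7 and 55.2 CPM in KFs, a log2 fold change of -1.24 [-1.56] that did not pass the test. Genes of the loop, distal tubule and collecting duct were called higher in 12 of 23 tested, in 14 of 25 tested without replicate 3, and lower in none. Umod, the urinary protein uromodulin, was at 10.3, 3.91 and 2.57 CPM in KFs with 0 counts in KFc, at least 53.1-fold higher (at least 67.4-fold without replicate 3). The same 13 proximal tubule markers summed to 157 to 1432 CPM in HFs and 160.3 to 428 CPM in TFs, against at most 22.1 CPM in HFc and TFc.

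Leukocyte and macrophage markers were called lower in 13 of 21 tested and higher in none, and without replicate 3 lower in 13 and higher in 2 of 23 tested. C1qc, a complement chain made by macrophages, fell from 40.1, 36.5 and 35.4 CPM in KFc to 3.56, 2.47 and 0.281 CPM in KFs (log2 fold change -4.14 [-3.68], SE 0.49, adjusted p = 6.2e-06). Csf1r, the receptor of Csf1, fell from 77.2, 81.2 and 72.4 CPM to 13.9, 10.9 and 6.57 CPM (log2 fold change -2.88 [-2.68], SE 0.21, adjusted p = 6.8e-08). Lyz2, lysozyme of myeloid cells, fell from 242, 233 and 233 CPM to 87.6, 64.2 and 2.53 CPM (log2 fold change -2.2 [-1.68], adjusted p = 0.011). Replicate 3 was the lowest library for these 3 genes. Higher calls numbered 1 without any 1 of the KFc libraries. Transplanted cells had passed a CD45- gate after recovery, so the sort and the transplantation cannot be told apart for these markers. Endothelial markers split into 9 higher and 4 lower of 18 (7 and 3 without replicate 3, 5 and 5 without KFs replicate 1, 5 and 3 without KFc replicate 3), with Flt1, a VEGF receptor, at 63.8, 62.9 and 76.3 CPM in KFs and 28.6, 35.1 and 29.2 CPM in KFc (log2 fold change 1.13, and 0.99, short of the limit, without replicate 3) and Eng, endoglin, at 31.7, 37.4 and 12.9 CPM and 76.1, 79.5 and 72.2 CPM (log2 fold change -1.47 [-1.18]). Hemoglobin and erythroid genes were called higher in 1 of 7, against 14.7% of all genes. Higher calls among them numbered 6 without replicate 3, and 0 in edgeR when any 1 of the other kidney libraries was left out. Hba-a1 was at 1.41, 0.577 and 0 CPM in KFs with 0 counts in KFc.

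**Figure D4:**
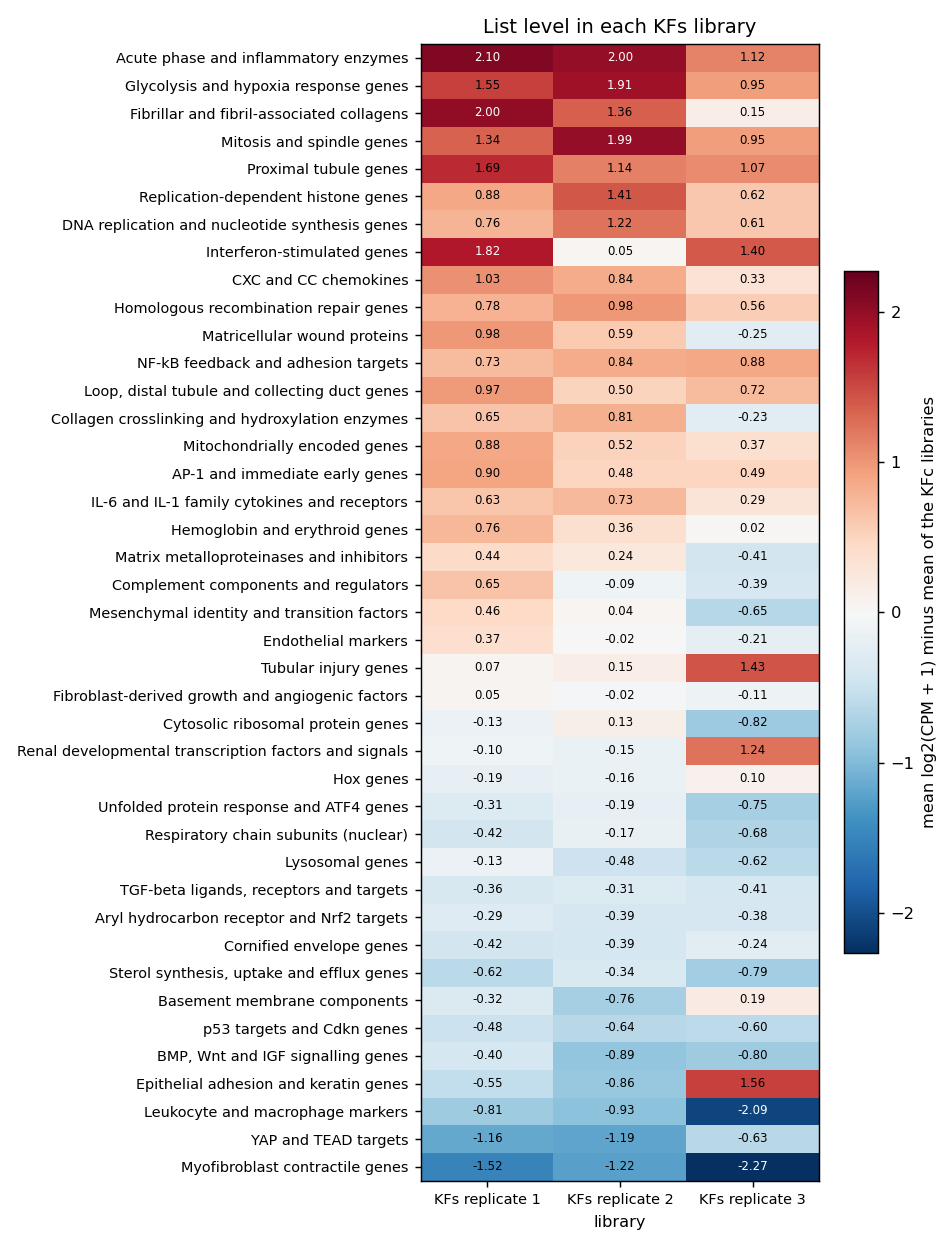
Mean log2(CPM + 1) over the members of each list in each KFs library, minus the mean of the 3 KFc libraries (red above, blue below the controls, value printed in each cell). Contractile genes are below the controls in all 3 libraries (-1.52, -1.22 and -2.27), interferon-stimulated genes are near them in replicate 2 (0.05), and epithelial genes are above them in replicate 3 alone (1.56).

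Among protein-coding genes called in both fits with no overlap and at least 10 CPM in the higher group, the 12 largest rises also included Steap4, Ndufa4l2 and Serpinb2. Steap4, a metalloreductase induced by cytokines, was at 34.2, 21.1 and 20.4 CPM in KFs against 1 count in the KFc libraries together, a ratio of 2186 with a 95% counting interval of 391.9 to 86387 (2261 without replicate 3). Ndufa4l2, which lowers mitochondrial respiration in hypoxia, was at 56.9, 67.4 and 6.45 CPM in KFs and 0, 0.0349 and 0.299 CPM in KFc (log2 fold change 8.49 [8.96], adjusted p = 2.8e-06). Serpinb2, plasminogen activator inhibitor 2, was at 116, 379.8 and 219 CPM in KFs and 1.16, 1.08 and 0.964 CPM in KFc (log2 fold change 7.80 [7.81], SE 0.65, adjusted p = 2.3e-07).

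Among the 12 largest falls, Smpd3 (ENSMUSG00000031906, chr8:106252548-106337988, minus strand), a neutral sphingomyelinase, fell from 59.9, 56.2 and 54.5 CPM in KFc to 0.809, 1.54 and 1.04 CPM in KFs (log2 fold change -5.62 [-5.60], SE 0.34, adjusted p = 1.1e-08). Myom1, which encodes the sarcomere protein myomesin, fell from 92.0, 101 and 96.7 CPM to 2.14, 0.705 and 2.37 CPM (log2 fold change -5.82 [-6.17], SE 0.37, adjusted p = 1.6e-08). Prelp, a matrix proteoglycan of the lumican family, fell from 455, 442 and 427 CPM to 20.9, 3.62 and 3.05 CPM (log2 fold change -5.59 [-5.23], SE 0.55, adjusted p = 1.1e-06), the opposite direction to Lum. In each of these genes every KFs library was below every KFc library, which the rule for the 12 required. Adra1d, an alpha-adrenergic receptor, fell from 29.9, 35.1 and 30.5 CPM to 1.62, 0.449 and 0.561 CPM (log2 fold change -5.20 [-5.04], adjusted p = 5.9e-08), and Cd72, a B cell and myeloid receptor, fell from 26.0, 20.7 and 19.1 CPM to 0.606, 0.224 and 0.361 CPM (log2 fold change -5.80 [-5.80], adjusted p = 1.1e-07). Kprp, a gene of the epidermal differentiation cluster, was at 14.1, 12.3 and 14.7 CPM in KFc against 2 counts in the KFs libraries together, a ratio of 541 with a 95% counting interval of 149 to 4470.2 (391 without replicate 3). Of the 5 cornified envelope genes tested 4 were called lower and 1, Sprr1a, higher, and without replicate 3 it was 5 lower and 0 higher of 6 tested. No cornified envelope gene was called higher without KFc replicate 1 or KFc replicate 3 either. Ifi27l2b, Cd300ld3, Serpinb9b and the genes Col2a1, S100a4 and Gsta4 given above complete the 12.

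Calls that needed KFs replicate 3 included Syne2, Ivns1abp, Bicc1, Agrn, Slc38a6, Eno1b and Tmem176b, from the 8 of highest level. Syne2 (ENSMUSG00000063450, chr12:75818134-76110926, plus strand), a nesprin of the nuclear envelope, was at 207, 181 and 1337 CPM in KFs and 149, 147 and 159 CPM in KFc, and its log2 fold change went from 1.92 to 0.31 without that library. Tmem176b, a membrane protein, was at 116, 86.1 and 423 CPM in KFs and 50.9, 50.05 and 51.9 CPM in KFc (log2 fold change 2.03 and 0.94). Replicate 3 was above all other libraries in both. Eno1b was at 3.19, 0 and 431 CPM in KFs and at 0 in KFc, and as it is a near copy of Eno1 the split of reads between these genes is uncertain. Itgb4, the integrin of hemidesmosomes, was at 2.71, 2.12 and 66.2 CPM in KFs and 4.66, 3.91 and 5.58 CPM in KFc, called higher with all libraries (log2 fold change 2.32, adjusted p = 0.04) and lower without replicate 3 (-1.01, adjusted p = 0.026). It was the only gene with opposite calls and was named for that.

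Calls gained by leaving out KFs replicate 3 included the genes Col5a1, Tpm1, Serpinh1, P4hb, Map1b, Rtn4 and Axl, from the 8 of highest level. Col5a1 (ENSMUSG00000026837, chr2:27886425-28039514, plus strand), which starts collagen fibrils, was at 4426, 4864 and 1454 CPM in KFs and 2178, 2177 and 2018 CPM in KFc, and its log2 fold change was 0.75 with and 1.09 without replicate 3 (adjusted p = 0.056 and 5.2e-05). Serpinh1, the collagen chaperone, was at 2201, 2304 and 1001 CPM in KFs and 1073, 1064 and 1026 CPM in KFc (log2 fold change 0.80 and 1.05). In both, replicates 1 and 2 were above and replicate 3 was below the controls. Tpm1, a tropomyosin, was at 1161, 1486 and 1482 CPM in KFs and 2805, 2701 and 2717 CPM in KFc, with no overlap and a log2 fold change that moved only from -0.99 to -1.09.

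The response of kidney fibroblasts to transplantation was then set against that of the other organs, as the change from KFc to KFs minus the change from HFc to HFs or from TFc to TFs. Against heart fibroblasts the interaction passed an adjusted p under 0.05 in 4347 of 16577 genes (26.2%), in 2577 of which the kidney response was higher (15.5%) and in 1770 lower (10.7%). Without KFs replicate 3 it passed in 5962 of 16923 (35.2%), 2915 of them higher (17.2%) and 3047 lower (18%). Against tail fibroblasts it passed in 1835 genes (11.1%), 828 higher (4.99%) and 1007 lower (6.07%), and without KFs replicate 3 in 3619 (21.4%), 1645 higher (9.72%) and 1974 lower (11.7%). Both comparisons rest on the same KFs and KFc libraries.

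In most of the listed cell division genes the response of kidney fibroblasts differed from that of heart fibroblasts. The kidney response was higher than the heart response in 57 of 60 mitosis genes, 46 of 53 replication genes, 41 of 54 histone genes and 20 of 32 recombination genes (57, 47, 42 and 21 without KFs replicate 3). Their medians in heart fibroblasts were -0.66, -0.74, -0.61 and -0.17, and in tail fibroblasts 0.52, 0.31, 0.37 and 0.36. The cultured cells differed in level as well, with a summed level of the mitosis genes of 811 to 829 CPM in KFc, 2195 to 2394 CPM in HFc and 1320 to 1369 CPM in TFc. In the transplanted cells the sum was 1717 to 3676 CPM in KFs, 1335 to 1717 CPM in HFs and 1296 to 3120.0 CPM in TFs. The part of the cultured levels in these differences was not tested. Against tail the kidney response was higher in 10 of the 60 mitosis genes, and in 42 without KFs replicate 3. Mki67 changed by 2.28 [2.48] in kidney, -0.27 in heart and 0.95 in tail fibroblasts on the log2 scale. For the sterol synthesis, uptake and efflux genes the kidney response was above that of heart in 24 of 33 and below it in 2 (24 and 6 without replicate 3). The medians of their log2 fold changes were -0.55 in kidney (-0.50 without replicate 3) and -1.71 in heart fibroblasts. The summed level of this list was 1352 to 1393 CPM in KFc and 2019 to 2082 CPM in HFc. Glycolysis and hypoxia genes had a higher kidney response than heart in 13 of 35 and a lower one in none (18 and 0 without replicate 3). The kidney response of the interferon-stimulated genes was below that of tail in 24 of 44 members and above it in none (27 and 0 without replicate 3). Their tail median was 3.59. The kidney response of the NF-kB genes was likewise below that of tail in 10 of 26 (12 without replicate 3).

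**Figure D5:**
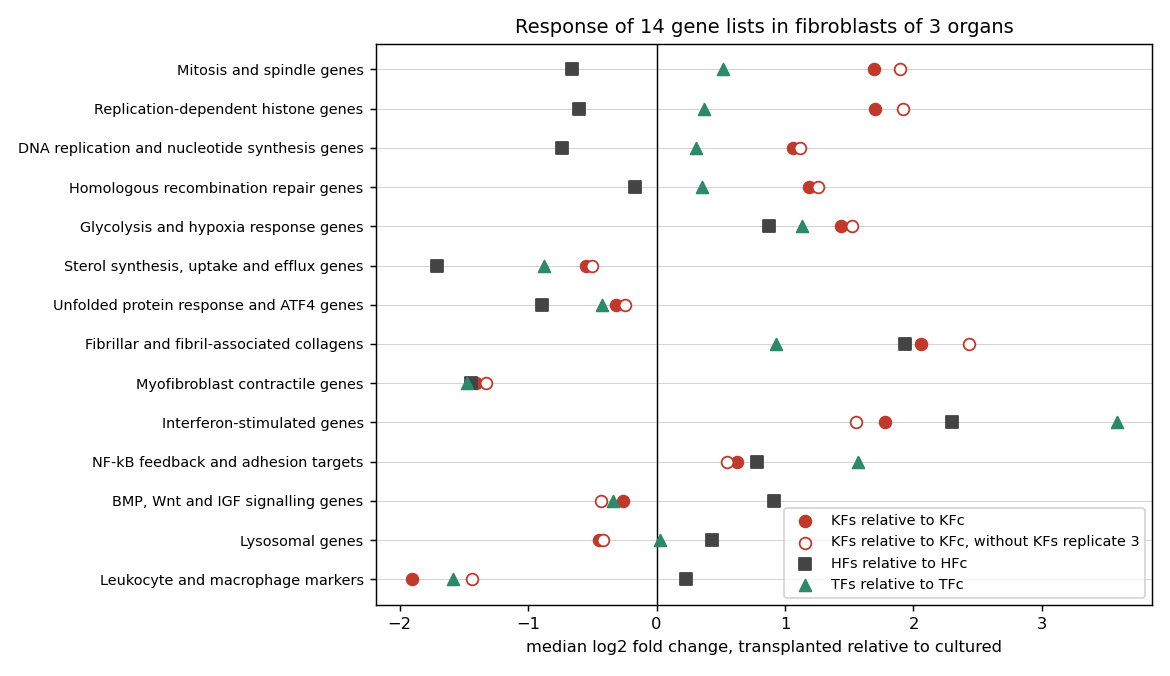
Median log2 fold change, transplanted relative to cultured, of 14 gene lists in kidney (red circles, open without KFs replicate 3), heart (black squares) and tail fibroblasts (green triangles). Cell division lists are above 0 in kidney and below 0 in heart, contractile genes lie together at -1.41, -1.45 and -1.47, and interferon-stimulated genes are highest in tail (3.59).

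The 6 genes whose kidney response was above both other organs, and the 6 below both, were taken by the size of the smaller interaction. Cxcl5, given above, rose by 7.90 [8.29] in kidney, 4.51 in heart and 3.96 in tail fibroblasts on the log2 scale. Stc2, the glycoprotein stanniocalcin 2, was at 16.5, 21.1 and 14.2 CPM in KFs and 2.46, 1.88 and 1.83 CPM in KFc, a log2 fold change of 3.07 [3.15] in kidney (adjusted p = 1.2e-05) beside 0.23 in heart and 0.84 in tail. Ankrd1, a YAP target, fell from 172, 166 and 160.0 CPM in KFc to 29.5, 55.2 and 106 CPM in KFs, a log2 fold change of -1.39 [-2.01] in kidney beside -4.81 and -4.21, so that its fall was the smallest in kidney. Krt19, a keratin of simple epithelia, was at 13.8, 15.7 and 8.62 CPM in KFs and 6.94, 4.05 and 7.34 CPM in KFc (log2 fold change 1.06 [1.23], and -2.28 and -1.61 in heart and tail). Sfrp2 and Fam78b were the other two above both.

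Igfbp5 (ENSMUSG00000026185, chr1:72857932-72874884, minus strand), a carrier of insulin-like growth factors, fell from 73.3, 62.8 and 56.1 CPM in KFc to 13.9, 7.44 and 21.9 CPM in KFs, a log2 fold change of -2.16 [-2.64] (adjusted p = 0.0013), while it was 3.26 in heart and 3.39 in tail fibroblasts. Rspo2, an R-spondin that amplifies Wnt signals, fell from 19.7, 18.5 and 16.7 CPM to 2.67, 0.705 and 0.361 CPM (log2 fold change -3.89 [-3.52]) beside 0.64 and 1.52. Tnfsf15, a TNF family ligand, fell from 135, 140.1 and 134 CPM to 7.40, 6.70 and 35.0 CPM (log2 fold change -3.07 [-4.32]) beside 3.28 and 0.90. In these 3 genes the change was negative in kidney, and the estimates in heart and tail fibroblasts were positive, of which that of Rspo2 in heart (adjusted p = 0.32) and that of Tnfsf15 in tail (adjusted p = 0.22) did not pass the test. The interactions of all 12 genes kept their direction and passed without KFs replicate 3. Clic5, an intracellular chloride channel protein, fell from 10.6, 10.5 and 11.7 CPM to 1.13, 0.513 and 0.521 CPM (log2 fold change -3.92 [-3.79]) beside 1.90 and 0.65. Lrp2, whose kidney values are given above, had changes of 3.53 in heart and 3.08 in tail fibroblasts. It stood at 42.4, 324 and 26.7 CPM in HFs replicates 1 to 3 and 10.7 to 11.7 CPM in HFc, and HFs replicate 2 was also the library with the highest sum of proximal tubule markers (1432 CPM). Without that library the interaction of Lrp2 against heart went from -4.77 to -2.92. The part of tubular RNA in these values was not tested. The gene 1500015O10Rik completed the set.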

How the data were processed

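RNA-seq was analysed from 18 libraries of fibroblasts, 3 for each of 6 groups (transplanted and cultured cells of kidney, heart and tail). RNA had been made into total RNA libraries with a stranded low-input kit and read as single 75-base reads. The authors estimated counts per gene with RSEM, and the deposited table holds these expected counts for 38924 genes, not normalized. The study's methods name Bowtie2 as aligner and GRCm38 as genome, while the submitters' processing notes list Bowtie and mm9. Gene IDs were matched to GENCODE M21 (GRCm38), which held 37607 of them, and coordinates come from that annotation. Columns were mapped by the library names in the labels. That of KFs replicate 3, the library that goes against its male label, is named Kidney-Fibros without the code K3 of its title.

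The expected counts were rounded and library totals ran from 21683565 to 31257182 in the kidney groups. Genes were kept by edgeR's filter for low counts (16577 genes), scaled by TMM and fitted with edgeR 4.0.16 (R 4.3.3) in the quasi-likelihood model over all 18 libraries with 1 mean per group. A call needed a Benjamini-Hochberg adjusted p under 0.05 and, for transplanted against cultured cells, a log2 fold change past 1. Differences of response between organs were tested as interaction terms with no fold limit. Counts were also simulated with the means of the cultured groups and these library sizes. For KFs against KFc over 15612 genes, 82 of 100 genes changed by a log2 of 1.5 and 96 of 100 changed by 2.5 were found, with 2 false calls. The simulation gave all groups the same spread and held no outlying library. The real median coefficient of variation was 17.96% in KFs and 4.91% in KFc, so these rates may not hold for the real libraries. Reads of near-identical genes may have been split between them by the estimate. Intervals and floors cover counting error only, as reads without molecular identifiers are not independent molecules.

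The comparison, the gene lists and the list members were chosen with earlier results of these data known. Genes were named by rule: the 12 largest rises and falls among protein-coding genes called in both fits without overlap and at 10 CPM or more in the higher group, the 8 of highest level called only with and only without KFs replicate 3, the 6 largest interactions in each direction against both organs, and up to 4 members of each of 41 lists (the 2 called with the largest change and the 2 of highest level) plus a defining one. Some of these genes are not reported here. Promoter sequences were taken from RefSeq (GRCm38.p6) for 250 bases before the gene start, with chromosome 18 left out. Alternatives were DESeq2 1.42.0, its size factors, library totals, no filter, a mean count of 10 or more, thinning to equal totals, a fit on the groups compared alone, the replicate number as block, other thresholds and leaving out each library.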

Additional observations from a re-analysis of the deposited data

Results flagged for a closer look

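The response of kidney fibroblasts to transplantation differed from that of heart fibroblasts in 4347 genes and from that of tail fibroblasts in 1835 genes. Each difference was tested as an interaction term in edgeR's quasi-likelihood model, and both counts rest on the same KFs and KFc libraries. Values below are the kidney response minus the other response on the log2 scale. Sfrp2 had differences of 3.85 against heart and 4.84 against tail. Those of Cxcl5 were 3.40 and 3.95, those of Ankrd1 3.42 and 2.82, and those of Krt19 3.33 and 2.67. Fam78b differed by 2.30 and 4.12 and Stc2 by 2.84 and 2.23. In the other direction Igfbp5 differed by -5.41 and -5.55, Clic5 by -5.82 and -4.57, and Rspo2 by -4.53 and -5.41. For 1500015O10Rik the differences were -4.50 and -4.41, for Lrp2 -4.77 and -4.32, and for Tnfsf15 -6.35 and -3.97. Without KFs replicate 3 the counts were 5962 and 3619, and the interactions of these 12 genes kept their direction and passed against both organs. Groups of 3 were not searched for single outlying values gene by gene.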

How the results depend on the processing

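The count of genes called between KFs and KFc stayed within 1.5 times of 3754 under DESeq2, other scalings, other filters, thinning, the replicate block, an adjusted p of 0.01 and the 6 kidney libraries alone (2827 to 3898), and ranged from 3347 to 3921 when each library was left out in turn. With no limit on the fold change it was 8091. For the difference from heart fibroblasts the count was 3249 to 5962 when each library was left out, 2386 at an adjusted p of 0.01 and 2176 with an absolute log2 interaction above 1. For the difference from tail fibroblasts it was 1198 to 3619 when each library was left out (1198 without TFc replicate 3 and 3619 without KFs replicate 3), 767 at an adjusted p of 0.01 and 980 with an absolute log2 interaction above 1. The cause of these changes was not tested beyond the stricter thresholds themselves. Library totals in place of TMM shifted the median heart interaction of all genes by 0.11, and no scaling tried shifted the median change in kidney by over 0.1. The heart interactions split into 2577 higher and 1770 lower with TMM, 2188 and 2010 with DESeq2 size factors, 3248 and 1474 with library totals and 1006 and 1170 with the limit of 1 on the log2 interaction. Those against tail split into 828 and 1007 with TMM, 698 and 1127 with size factors and 940 and 904 with library totals.

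Deviations from the group mean correlated at 0.0098, 0.018 and 0.045 between same-numbered KFs and KFc libraries. Between libraries of different numbers the correlations were -0.048 to 0.029. With 3 libraries per group and KFs replicate 3 apart, these values cannot show whether the replicate numbers pair the samples. A replicate block gave 3601 calls for KFs against KFc, 4126 against heart and 1633 against tail. The block together with leaving out KFs replicate 3, chosen after seeing the data, gave 3777, 5460 and 3168.

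The 149 genes named gave more values than genes, as interactions were counted besides changes. Without KFs replicate 3, 143 of these values kept their direction and side of the threshold, 16 fell short of it, 8 newly passed and 6 changed sign. The interactions and the largest rises and falls had been chosen to pass without that library. Over the fits that left out each library in turn, log2 fold changes ran from -0.0052 to 1.85 for Agrn, -0.32 to 2.40 for Cldn1, -1.59 to 1.98 for Havcr1, -1.01 to 2.85 for Itgb4, -1.91 to 1.65 for Pax8 and -0.079 to 3.40 for Sprr1a, with the lowest value in each case that without KFs replicate 3. For Gapdh they ran from -0.063 (without KFs replicate 2) to 0.83 (without KFs replicate 3). In the other fits without that library, both added after seeing the data, the values were -0.084 for Agrn in the block fit, and -0.47 and -0.28 for Cldn1, -1.55 and -1.54 for Havcr1, -0.91 and -0.96 for Itgb4, -1.95 and -1.86 for Pax8, and -0.17 and -0.027 for Sprr1a (block first, then the KFs and KFc libraries alone). The block alone turned Havcr1 to -0.087. The cause was not tested. Of the 7 lists whose median changed sign without KFs replicate 3, basement membrane components did so also without KFs replicate 1 (-0.09), and under the other scalings, filters, thinning, block and kidney libraries alone 0 list medians changed sign. Of 738 list counts recomputed in those fits 49 moved by over 1.5 times. In the kidney libraries alone the higher calls went from 9 to 3 for renal developmental factors and from 9 to 3 for endothelial markers. They went from 7 to 3 for metalloproteinases and inhibitors and from 9 to 5 for complement genes. The lower calls in that fit went from 13 to 8 for leukocyte markers and from 4 to 1 for chemokines. In DESeq2 the higher calls went from 1 to 6 for hemoglobin and erythroid genes. Genes with few counts in one group are limited by depth to the bounds and counting intervals given.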

Other observations

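The response of further lists differed from that of heart fibroblasts in part of their members. Over all genes tested the kidney response was higher in 15.5% and lower in 10.7% (17.2% and 18% without KFs replicate 3). For the unfolded protein response and ATF4 genes the kidney response was higher in 16 of 32 and lower in 2 (20 and 2 without KFs replicate 3), and their medians were -0.31 in kidney (-0.24 without that library) and -0.90 in heart fibroblasts. Lysosomal genes had a lower response in kidney in 17 of 37 and a higher one in 0 (22 and 0 without that library), with medians of -0.45 in kidney (-0.42), 0.43 in heart and 0.03 in tail fibroblasts. Genes of BMP, Wnt and IGF signalling were lower in 17 of 42 and higher in 3 (23 and 4), with medians of -0.26 (-0.44 without KFs replicate 3), 0.92 and -0.34. Hox genes were lower in 11 of 34 and higher in 0 (12 and 0), but heart fibroblasts hardly held their RNA, with a summed level of 11.2 to 17.1 CPM in HFc and 18.3 to 30.5 CPM in HFs against 494 to 511 CPM in KFc and 415 to 558 CPM in KFs. Cytosolic ribosomal protein genes were higher in 17 of 78 with all libraries and in 72 without KFs replicate 3. Leukocyte and macrophage markers were lower in 9 of 21 with all libraries and in 15 without KFs replicate 3, with medians of -1.91 in kidney (-1.44 without that library, which is above the tail median), 0.23 in heart and -1.58 in tail fibroblasts. The summed level of this list was 610 to 666 CPM in KFc, 148 to 172 CPM in HFc and 230.2 to 262 CPM in TFc, and 44.6 to 217 CPM in KFs, 139 to 235 CPM in HFs and 60.8 to 70.6 CPM in TFs. The part of these cultured levels and of the CD45- gate in the difference was not tested.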
